A study of Rattus norvegicus with 12 samples.

Results

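The 9 genes described here make, bind or respond to retinoic acid: the retinaldehyde dehydrogenases Aldh1a1 and Aldh1a2, the retinol-binding proteins Rbp4 and Rbp7, and the nuclear receptors Rara, Rarb, Rxra, Rxrb and Rxrg. They were taken by symbol from the annotation of a rat expression array, which names 13337 genes in all, and they are read by 11 probes, with 2 probes each for Rarb and Rxrb. The other 7 genes have 1 probe each. The 10 probes of 8 genes that were above background on at least 3 arrays were tested, and Rbp4 was not. The set was chosen by measured values in part: Aldh1a1, Rxrg and Rbp7 were selected on the difference between TCDD-exposed and control pituitaries in these arrays. Values of the 9 genes in that comparison are therefore given as a description without a p-value, and so are the tissue differences of those 3 genes.

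RNA came from male Wistar rat fetuses on gestational day 20. The groups were pituitaries of fetuses exposed to TCDD (2,3,7,8-tetrachlorodibenzo-p-dioxin, a dioxin that activates the aryl hydrocarbon receptor, AhR), control pituitaries, TCDD-exposed hypothalami and control hypothalami, with 3 arrays each. The dams of the TCDD groups had been given TCDD by mouth, in corn oil, on gestational day 15, and the labels do not say what the control dams received. The series text gives the dose as 1 µg/kg and the sample labels as 1 mg/kg, and no value below depends on it. Nothing in the labels ties a sample to its own dam or litter. The p-values therefore reflect how far the arrays of a group scatter, and part of that scatter may be technical. The study asked which genes underlie lower β-subunit expression of the gonadotropins in fetuses after dioxin.

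Retinol circulates bound to RBP4 and is held inside cells by small retinol-binding proteins such as RBP7. Dehydrogenases oxidise it to retinaldehyde, and the ALDH1A enzymes oxidise retinaldehyde to retinoic acid, the ligand of the retinoic acid receptors (RARs). RARs bind DNA as partners of the retinoid X receptors (RXRs), which also pair with thyroid hormone receptors, vitamin D receptor and others, and CYP26 enzymes clear retinoic acid. Retinoic acid patterns the embryonic brain and pituitary, and dioxins are known to disturb vitamin A stores in rodents.

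The sequence around the gene start is shown for the 3 genes that differed between TCDD and control pituitaries and for Rarb, a classical retinoic acid target, from RefSeq on the GRCr8 assembly, which covers 250 bases before to 50 after the annotated start. All 9 genes had such an entry. The search covered both strands for the core that AhR and its partner ARNT recognise, GCGTG. It also covered 1 form of a retinoic acid response element of the direct repeat type, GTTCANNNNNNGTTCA, where N is any base. Capitals mark a match, which for Rbp7 is the core read on the opposite strand, and the motifs do not overlap in these windows.
Aldh1a1, chr1:227537370-227537669, plus strand: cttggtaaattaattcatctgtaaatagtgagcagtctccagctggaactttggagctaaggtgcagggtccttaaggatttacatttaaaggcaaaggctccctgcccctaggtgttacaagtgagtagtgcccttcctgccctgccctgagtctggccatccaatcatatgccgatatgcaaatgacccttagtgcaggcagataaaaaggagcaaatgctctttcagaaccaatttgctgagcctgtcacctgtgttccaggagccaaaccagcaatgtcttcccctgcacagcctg
Rxrg, chr13:82276237-82276536, plus strand: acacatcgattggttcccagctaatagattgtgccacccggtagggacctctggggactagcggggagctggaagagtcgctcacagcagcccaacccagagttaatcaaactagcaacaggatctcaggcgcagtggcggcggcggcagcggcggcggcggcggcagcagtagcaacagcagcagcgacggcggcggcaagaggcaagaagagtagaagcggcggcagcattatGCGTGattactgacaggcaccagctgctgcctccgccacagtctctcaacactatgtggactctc
Rbp7, chr5:165177350-165177649, minus strand: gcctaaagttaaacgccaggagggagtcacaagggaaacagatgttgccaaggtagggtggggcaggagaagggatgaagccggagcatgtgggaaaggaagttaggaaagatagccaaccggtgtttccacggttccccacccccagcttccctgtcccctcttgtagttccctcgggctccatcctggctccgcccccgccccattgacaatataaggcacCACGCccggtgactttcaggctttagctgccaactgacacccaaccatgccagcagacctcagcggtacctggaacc
Rarb, chr15:11336142-11336441, plus strand: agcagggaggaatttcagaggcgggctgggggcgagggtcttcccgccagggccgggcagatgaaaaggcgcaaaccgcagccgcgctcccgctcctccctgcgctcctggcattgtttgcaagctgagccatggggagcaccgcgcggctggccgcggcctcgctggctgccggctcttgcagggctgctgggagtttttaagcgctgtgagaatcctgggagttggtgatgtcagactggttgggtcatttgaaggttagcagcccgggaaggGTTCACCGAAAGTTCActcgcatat
The AhR core stood once in the Rxrg window, at -15 from the annotated start, and once in that of Rbp7, on its opposite strand at -27. It was not found in the Aldh1a1 window. Of 33465 windows of the same length in the table, 29.7% hold the core. This form of the direct repeat stood in the Rarb window only among the 9 genes, beginning 26 bases past the start, and 0.418% of all windows hold it. Its letters and spacing are those of the Rarb window, so the Rarb match is no finding. Other half-sites and spacings were not searched, so the other genes may hold another form. Among the genes not printed, Rbp4 had 4 cores, Aldh1a2 had 1, and Rara, Rxra and Rxrb had 0. A match is a run of letters and not a shown binding site.

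Levels below are log2 values of background-corrected, quantile-normalized bead intensity, differences are in log2 units with the standard error (SE) of the fit, and every group has n = 3. Tissue could be read from the arrays themselves, and so could exposure in the pituitary. Cyp1a1, a cytochrome P450 classically induced by AhR, was at 11.47, 11.49 and 11.07 in TCDD pituitaries and not above background on any of the other 9 arrays. Cyp1b1, a related enzyme, averaged 2.04 ± 0.32 higher in TCDD hypothalami than in control hypothalami, which did not pass over all probes (limma, adjusted p = 0.111). Nqo1, another AhR target, differed by 1.69 ± 0.11 with TCDD in the pituitary and by 0.35 ± 0.11 in the hypothalamus (limma, adjusted p = 9.00e-06 and 0.317). Of 5 AhR target probes 0 passed in the hypothalamus, where 0.0230% of all tested probes passed. Exposure there is taken from the labels. Per array, the mean level of 8 anterior pituitary markers was 10.93 to 11.14 in TCDD pituitaries, 11.46 to 11.99 in control pituitaries and 5.71 to 6.11 in the hypothalami. The pituitary groups did not overlap in this mean. Of the 8 markers 2 fell in TCDD pituitaries, the gonadotropin β-subunit genes Fshb (-3.32 ± 0.33, adjusted p = 3.40e-04) and Lhb (-1.81 ± 0.21, adjusted p = 0.00135), both named after their values were seen. The other 6 markers differed by -0.26 to 0.05, and 0.284% of all tested probes fell in TCDD pituitaries. The part of these markers in the TCDD differences of Aldh1a1, Rxrg and Rbp7 in the pituitary was not tested. The mean per array of 12 hypothalamic neuropeptides was 6.23 to 6.56 in the pituitaries and 9.31 to 9.70 in the hypothalami. Some arrays stood apart. Pituitary TCDD replicate 5 had a mean of 10.99 over 9 neuron markers, against 9.55 to 9.96 on the other pituitary arrays. Both hypothalamus arrays numbered 3 were highest in meningeal and mesenchymal markers, at 9.72 each over 10 probes, against 7.50 to 8.70 on the other hypothalamus arrays. Ttr, the transthyretin gene of the choroid plexus, was at 12.51 on pituitary control replicate 1 and at 11.80 on hypothalamus TCDD replicate 3, and at 5.05 to 6.49 elsewhere. In such bulk tissue, fewer cells of a type and less RNA per cell cannot be told apart.

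**Figure D1:**
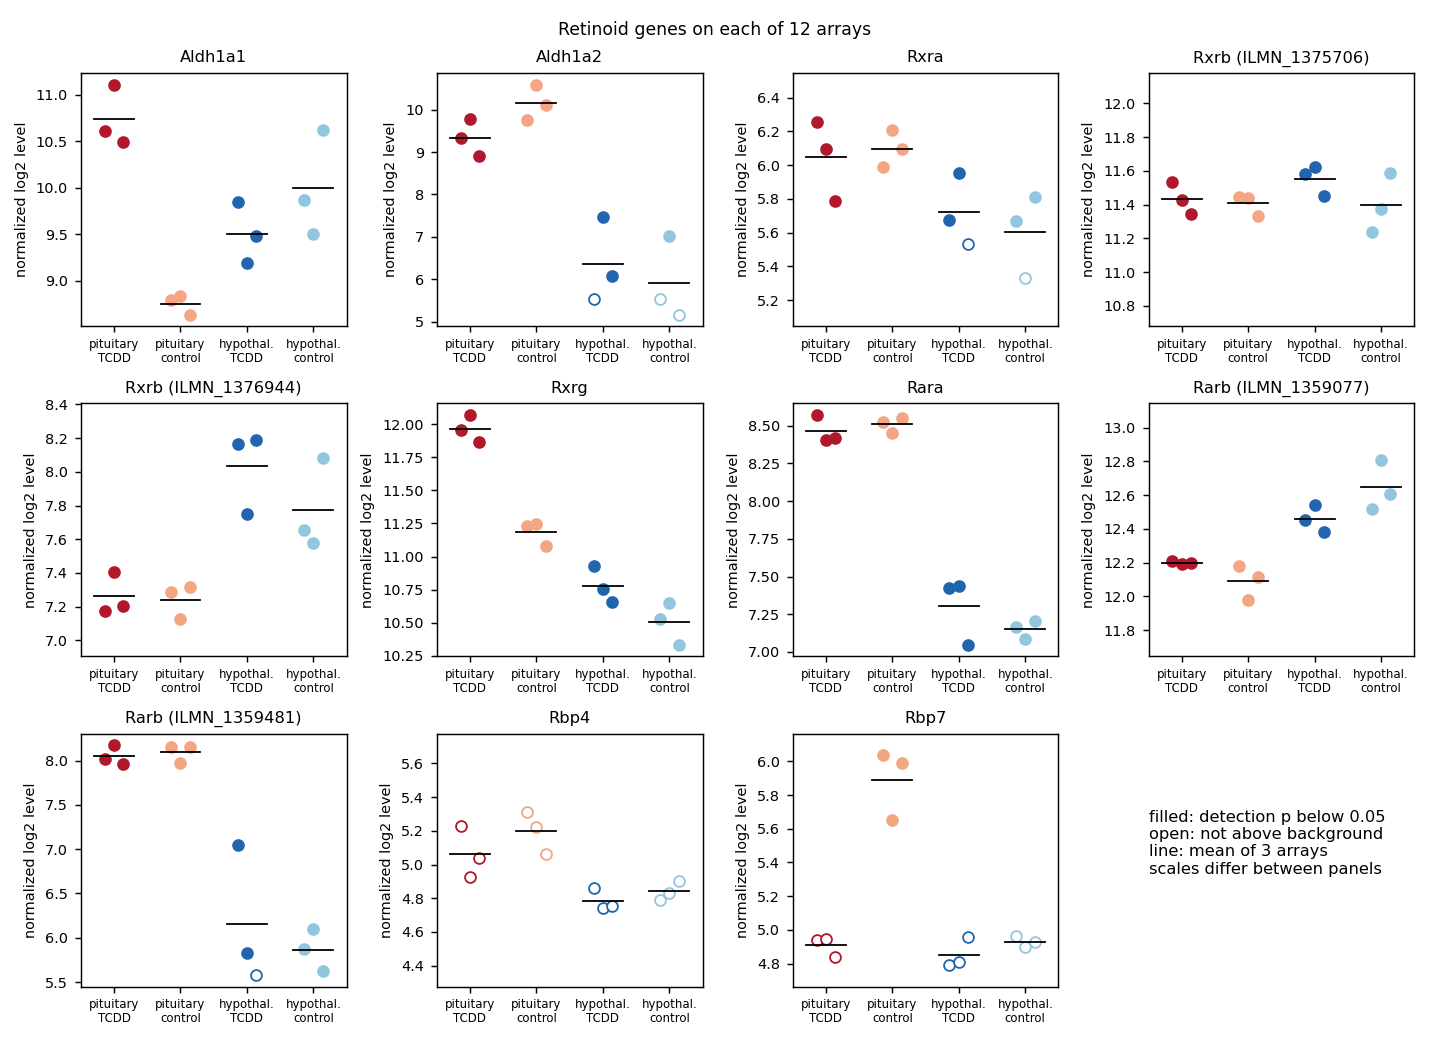
Normalized log2 level (vertical axis) of the 11 probes on each of the 12 arrays, 1 panel per probe, grouped as pituitary TCDD, pituitary control, hypothalamus TCDD and hypothalamus control. Filled points are above background, open points are not, and the lines are means of 3 arrays. Aldh1a1 is higher in TCDD than in control pituitaries on every array, Rbp7 is above background in control pituitaries only, and Rbp4 is above background on no array.

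Aldh1a1, which oxidises retinaldehyde to retinoic acid, was the gene of the 8 tested with the largest difference between TCDD and control pituitaries. It was at 10.61, 11.11 and 10.49 in TCDD pituitaries, against 8.79, 8.84 and 8.64 in control pituitaries. The lowest exposed array lay well above the highest control array. The means were 10.74 ± 0.33 in TCDD and 8.76 ± 0.10 in control pituitaries (SD), a difference of 1.98 ± 0.26 or 3.95-fold. Without pituitary TCDD replicate 5, the array with high neuron markers, the Aldh1a1 difference was 2.11.

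In the hypothalamus Aldh1a1 was at 9.84, 9.19 and 9.48 after TCDD, against 9.86, 9.50 and 10.62 in controls. The groups overlapped, and control replicate 5 stood above all other hypothalamus arrays. The difference was -0.49 ± 0.26, with a 95% interval of -1.05 to 0.07 (adjusted p = 0.525), and -0.18 without control replicate 5. The order of the tissues therefore differed between the treatments. The pituitary was above the hypothalamus by 1.23 ± 0.26 in TCDD arrays, and below it by a difference of -1.24 ± 0.26 in control arrays. In neither arm did the tissues overlap. In the authors' processed values the control difference of Aldh1a1 was -0.65. The difference between the TCDD effects in pituitary and hypothalamus was 2.47 ± 0.36.

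Aldh1a2, the retinaldehyde dehydrogenase that supplies most retinoic acid to the early rodent embryo, was above background on every pituitary array and on 3 of 6 hypothalamus arrays. It was at 9.34, 9.77 and 8.90 in TCDD pituitaries, against 9.77, 10.59 and 10.10 in control pituitaries, a difference of -0.82 ± 0.51. The highest exposed array equalled the lowest control array to the second decimal, and the spread within each group was near 0.4 log2 units, at SDs of 0.44 and 0.41. In the hypothalamus it was at 5.54, 7.47 and 6.07 after TCDD, against 5.52, 7.02 and 5.16 in controls, with 2 of 3 and 1 of 3 arrays above background. There the difference was 0.46 ± 0.51, with an interval of -0.65 to 1.57 (adjusted p = 0.791), and it turned to -0.10 without TCDD replicate 3.

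Between the tissues Aldh1a2 differed far more than the spread within them. The pituitary exceeded the hypothalamus by 2.98 ± 0.51 in TCDD arrays (adjusted p = 1.92e-04) and by 4.25 ± 0.51 in control arrays (adjusted p = 8.81e-06). The control difference was 4.83 with both hypothalamus arrays numbered 3 left out. Values of 2 meningeal transporters, picked from a list of 10 probes, are set beside those of Aldh1a2. With TCDD in the pituitary Slc6a13 differed by -0.77 and Slc22a6 by -0.88. The median of the 10 probes there was 0.01, with 5 above and 5 below 0. Col1a1 and Dcn of the same list differed by -0.005 and -0.02. Slc6a13, a GABA and taurine transporter of the arachnoid, was at 9.38, 9.24 and 6.98 in TCDD pituitaries and at 8.41, 10.18 and 9.33 in control pituitaries. In the hypothalamus it was at 6.36, 8.31 and 7.80 after TCDD and at 7.12, 8.46 and 5.87 in controls. Slc22a6, an organic anion transporter of the same membrane, was at 9.36, 8.79 and 6.73 in TCDD pituitaries and at 8.10, 10.07 and 9.33 in control pituitaries. Both transporters were lowest among pituitaries on TCDD replicate 5 and highest on control replicate 2. Col1a1 and Dcn were also lowest among pituitaries on TCDD replicate 5, at 13.37 and 13.95. On control replicate 2, however, they were at 13.48 and 13.99, the lowest among control pituitaries. In the hypothalamus Slc22a6 was at 7.01, 9.40 and 7.80 after TCDD and at 7.63, 8.88 and 6.60 in controls. Of 10 meningeal and mesenchymal probes, 8 in TCDD arrays and 9 in control arrays passed as higher in the pituitary, against 33.4% and 33.7% of all tested probes. Their mean per array was 11.97 to 12.64 in TCDD pituitaries, 12.33 to 12.70 in control pituitaries, 8.11 to 9.72 in TCDD hypothalami and 7.50 to 9.72 in control hypothalami, and 0 of 10 passed with TCDD in either tissue by limma, with 0 at an unadjusted p below 0.05. Their part in the Aldh1a2 difference was not tested.

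**Figure D2:**
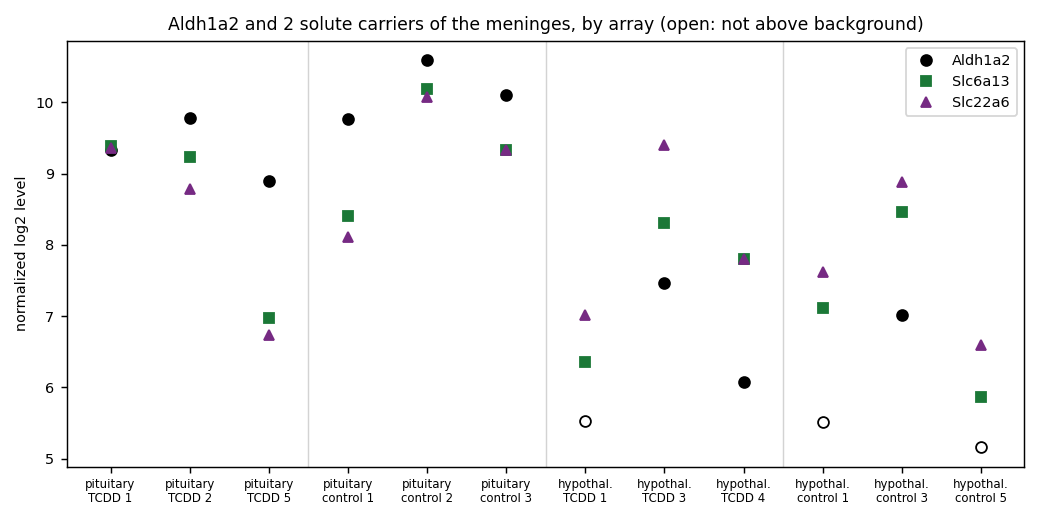
Normalized log2 level of Aldh1a2 (circles) and of the meningeal transporters Slc6a13 (squares) and Slc22a6 (triangles) on each of the 12 arrays, which are separated into their 4 groups; open symbols are not above background. In the hypothalamus all 3 genes are highest on the arrays numbered 3 within their group, and in the pituitary all 3 are lowest on TCDD replicate 5. The other markers of the meningeal list are not shown.

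Rbp4, which encodes the blood carrier of retinol made mainly by the liver, was not above background on any of the 12 arrays, so no difference is given for it. Rbp7, an intracellular retinol-binding protein known in the mouse from capillary endothelium and fat, was at 4.94, 4.95 and 4.84 in TCDD pituitaries, none above background, against 6.04, 5.65 and 5.99 in control pituitaries, all above background. The groups did not overlap. The measured means were 4.91 ± 0.06 in TCDD and 5.89 ± 0.21 in control pituitaries (SD). Because the exposed arrays only bound the level, Rbp7 was at least 1.35-fold lower in TCDD than in control pituitaries in the main processing. The probe passed the filter through control pituitaries alone, so this direction was fixed in advance. In the authors' processed values the measured difference was -0.23, against -0.98 ± 0.11 here, so the bound does not carry over to that scale. The bound sets the control mean against, for each exposed array, the higher of the probe's own signal and the lowest signal of any probe above background.

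No hypothalamus array had Rbp7 above background, at 4.79 to 4.96 after TCDD and 4.90 to 4.97 in controls (difference -0.08 ± 0.11, adjusted p = 0.837). Control pituitaries were at least 1.25-fold above control hypothalami in the main processing, while in TCDD arrays both tissues were at background. Rbp7 was tested only through the control pituitaries, so this order was fixed in advance. Over the alternatives its measured log2 difference between control tissues was as low as 0.16. Of 6 tested probes of endothelial markers, 1 rose and 0 fell in TCDD pituitaries, with a median of -0.22, where 0.384% of all tested probes rose. The one that rose was Vwf, the von Willebrand factor gene, by 1.08 ± 0.20 (adjusted p = 0.0315), named after its value was seen. The mean per array of the 7 endothelial probes was 8.78 to 9.16 in TCDD and 8.97 to 9.08 in control pituitaries. Of 9 tested skeletal muscle probes, 7 were lower in TCDD than in control pituitaries, while Actn3 and Tnnt1 differed by 0.12 and 0.02. By limma 4 fell, those of Ckm, Myl11, Tnnc2 and Tnnt3, by 0.52 to 1.40 on the log2 scale. These were again named after their values were seen, and 0.284% of all tested probes fell. Myh7, a muscle myosin gene outside this list, went the other way, at a mean of 10.56 in TCDD and 8.05 in control pituitaries. The mean of 10 muscle probes was 5.87 to 6.31 in TCDD and 6.44 to 6.93 in control pituitaries, and the part of these markers in the Rbp7 difference was not tested.

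Rxrg, which encodes the RXR that in mice marks thyrotrophs of the pituitary and parts of the forebrain, was at 11.95, 12.07 and 11.86 in TCDD pituitaries, against 11.23, 11.25 and 11.08 in control pituitaries. Every exposed array lay above every control array. The difference was 0.77 ± 0.11 or 1.71-fold, and 0.83 without pituitary TCDD replicate 5.

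In the hypothalamus Rxrg was at 10.93, 10.75 and 10.66 after TCDD, against 10.53, 10.65 and 10.33 in controls. The lowest exposed array was only just above the highest control array. The difference of 0.27 ± 0.11 had an interval of 0.03 to 0.52 and an unadjusted p of 0.0308, and it did not pass over all probes (limma, adjusted p = 0.405). Over all alternatives tried the adjusted p of Rxrg here was 0.333 to 0.711. The pituitary lay above the hypothalamus by 1.18 ± 0.11 in TCDD arrays and by 0.68 ± 0.11 in control arrays, without overlap. TCDD and control groups of Rxrg did not overlap in either tissue, but Rxrg was chosen on its pituitary difference. How many of all tested probes separate in the same way was not counted, so nothing is read from this.

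Rxra, the RXR that is widely expressed in epithelia, was near background. It ranged over 5.79 to 6.26 in TCDD pituitaries, 5.99 to 6.21 in control pituitaries, 5.53 to 5.95 in TCDD hypothalami and 5.33 to 5.81 in control hypothalami, where 2 of 3 arrays in each hypothalamus group were above background. The pituitary exceeded the hypothalamus by 0.33 ± 0.16 in TCDD arrays (adjusted p = 0.0804) and by 0.49 ± 0.16 in control arrays (adjusted p = 0.0136). The Rxra calls changed with single arrays and with the scaling. The call in controls was lost without hypothalamus control replicate 3 (0.36, adjusted p = 0.0661) or pituitary control replicate 2 (0.44, adjusted p = 0.0504), while the call in TCDD arrays was gained without pituitary TCDD replicate 5 (0.45, adjusted p = 0.0229) or hypothalamus TCDD replicate 3 (0.45, adjusted p = 0.0339). For Rxra that call was also gained under median scaling (0.41, adjusted p = 0.0292) and with array weights (0.36, adjusted p = 0.0404).

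The 2 probes of Rxrb, the ubiquitous RXR, disagreed between the tissues. Probe ILMN_1376944 of Rxrb was lower in the pituitary, by a difference of -0.77 ± 0.15 in TCDD arrays (adjusted p = 5.74e-04) and of -0.53 ± 0.15 in control arrays (adjusted p = 0.00772). Probe ILMN_1375706 of Rxrb gave -0.12 ± 0.11 in TCDD arrays (adjusted p = 0.342) and 0.01 ± 0.11 in control arrays (adjusted p = 0.950), a sign that flipped to -0.21 under median scaling. The control call of ILMN_1376944 for Rxrb was lost under median scaling (-0.36, adjusted p = 0.0560) and in the authors' processed values (-0.06, adjusted p = 0.362). Which transcripts each probe reads was not examined, so no single direction is given for Rxrb.

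Rara, the broadly expressed RAR, was at 8.57, 8.41 and 8.42 in TCDD pituitaries and 8.53, 8.45 and 8.55 in control pituitaries. In the hypothalamus it was at 7.43, 7.43 and 7.05 after TCDD and 7.17, 7.08 and 7.20 in controls. Every pituitary array exceeded every hypothalamus array, by about a log2 unit or more. The tissue difference was 1.16 ± 0.11 in TCDD arrays (adjusted p = 1.26e-06) and 1.36 ± 0.11 in control arrays (adjusted p = 2.98e-07). With TCDD it differed by -0.04 ± 0.11 in the pituitary and by 0.15 ± 0.11 in the hypothalamus, where the interval was -0.09 to 0.40 (adjusted p = 0.663).

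Rarb, the RAR that retinoic acid itself induces in many cells, gave opposite tissue differences with its 2 probes. Probe ILMN_1359481 of Rarb was at 8.02, 8.17 and 7.96 in TCDD pituitaries and 8.16, 7.98 and 8.15 in control pituitaries, against 7.04, 5.83 and 5.58 in TCDD hypothalami and 5.87, 6.10 and 5.62 in control hypothalami. The pituitary was higher by 1.90 ± 0.29 in TCDD arrays (adjusted p = 6.44e-05) and by 2.23 ± 0.29 in control arrays (adjusted p = 1.61e-05). One exposed hypothalamus array, replicate 1, carried the high value of 7.04. Probe ILMN_1359077 of Rarb was at 12.21, 12.19 and 12.20 in TCDD pituitaries and 12.18, 11.98 and 12.12 in control pituitaries, against 12.45, 12.54 and 12.38 in TCDD hypothalami and 12.52, 12.81 and 12.61 in control hypothalami. It was lower in the pituitary, by a difference of -0.26 ± 0.10 in TCDD arrays (adjusted p = 0.0349) and of -0.55 ± 0.10 in control arrays (adjusted p = 2.80e-04). For this Rarb probe the call in TCDD arrays was lost when any of 5 arrays was left out, at -0.21 to -0.26. Whether the probes read different Rarb transcripts was not examined. Neither probe of Rarb passed with TCDD in the hypothalamus, at 0.28 ± 0.29 (adjusted p = 0.765) and -0.19 ± 0.10 (adjusted p = 0.525) for ILMN_1359481 and ILMN_1359077.

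**Figure D3:**
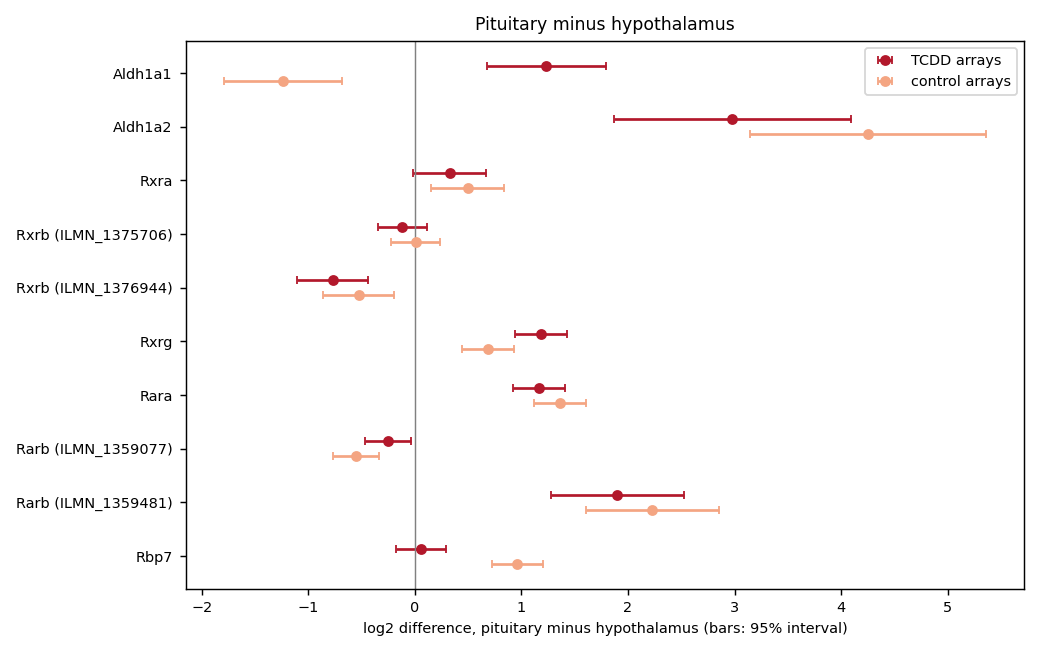
Difference in log2 level, pituitary minus hypothalamus, for each of the 10 tested probes (rows), in TCDD arrays (dark red) and in control arrays (light red), with 95% intervals from the fit. Aldh1a2, Rara and 1 probe of Rarb lie to the right of 0 in both, and Aldh1a1 lies on opposite sides of 0. The Rbp7 points are measured values of groups not above background, apart from control pituitaries.

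Taken as a set, 7 of the 10 probes passed between the tissues in TCDD arrays, 5 higher and 2 lower in the pituitary, while 70.2% of all tested probes passed, 33.4% higher and 36.8% lower. In control arrays 9 of 10 passed, 6 higher and 3 lower, against 69.5% of all tested probes, 33.7% higher and 35.9% lower. Among the 6 is Rbp7, which was tested only through the control pituitaries, so its direction was fixed in advance. In the authors' processed values the control tissue differences were smaller, at 2.15 for Aldh1a2, 0.75 for Rara and 0.76 for Rarb (ILMN_1359481), and all 3 passed there. Leaving aside Aldh1a1, Rxrg and Rbp7, 5 of 7 probes passed in TCDD arrays and 6 of 7 in control arrays, shares near those of all probes. The median tissue difference of those 7 probes was 0.33 in TCDD and 0.49 in control arrays, and that of all tested probes was -0.05 in both. In the hypothalamus 0 of 10 probes passed with TCDD, against 0.0230% of all tested probes, 0.00768% higher and 0.0154% lower. The Rxrg probe was the 1 probe of the 10 with an unadjusted p below 0.05 there, against 1422 of 13018 tested, and the alternatives tried likewise gave 0 calls. In the pituitary 3 of 10 passed, 2 higher and 1 lower, where 0.668% of all tested probes passed, 0.384% higher and 0.284% lower, and nothing is read from that count because it chose the genes. The differences of the TCDD effect between the tissues passed for 2 of 10 probes, those of Aldh1a1 and Rbp7, where 0.200% of all probes passed, 0.123% higher and 0.0768% lower. That count rests on the same pituitary arrays.

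**Figure D4:**
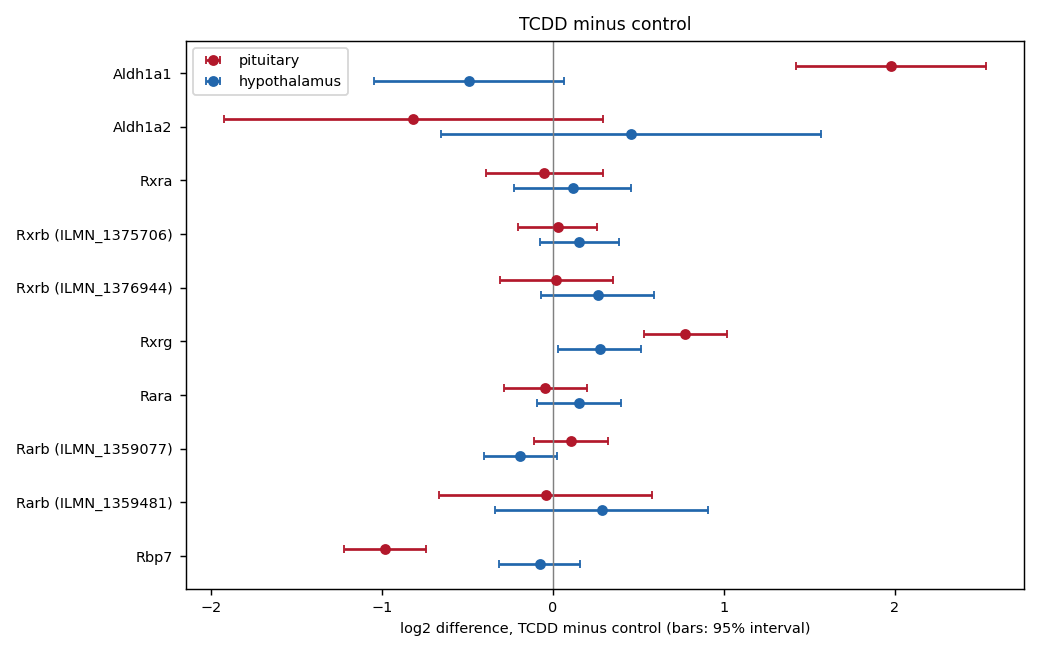
Difference in log2 level, TCDD minus control, for each of the 10 tested probes (rows) in the pituitary (red) and the hypothalamus (blue), with 95% intervals from the fit. In the pituitary Aldh1a1 and Rxrg lie right of 0 and Rbp7 left of it, and in the hypothalamus the Rxrg interval alone leaves out 0.

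For the rest of the pathway 70 further genes were listed. The annotation names a probe for 50 of them, and 37 passed the filter on dim probes. None of the 37 passed with TCDD, in the pituitary or in the hypothalamus, by limma over all probes. Of all tested probes 0.668% and 0.0230% passed, so a count of 0 says little about these genes. At an unadjusted p below 0.05 there were 5 in the pituitary (13.5%) and 2 in the hypothalamus (5.41%), against 11.5% and 10.9% of all tested probes. Their median TCDD difference was -0.02 in the pituitary and 0.04 in the hypothalamus, against -0.01 and -0.00 for all tested probes. By role, the counts of tested genes were 9 in synthesis and storage, 7 in binding and transport, 2 in catabolism, 8 among receptors and RXR partners, 3 coregulators and 8 retinoid-responsive genes.

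In the pituitary the smallest p belonged to Rbp3, a retinoid carrier of the retina and pineal. It was at 5.48, 5.51 and 5.89 in TCDD pituitaries and 6.03, 6.12 and 6.31 in control pituitaries, with no overlap, a difference of -0.53 ± 0.12 (adjusted p = 0.0791). Rbp3 passed when array weights were used (-0.58, adjusted p = 0.0111) or pituitary TCDD replicate 5 was left out (-0.65, adjusted p = 0.0172). Nrip1, a corepressor recruited by liganded nuclear receptors, was next, at 0.38 ± 0.13 (adjusted p = 0.257). With no filter on dim probes 2 genes passed, Bco1, which cleaves carotene to retinaldehyde, and Pparg, an RXR partner. Both were named after their values were seen, and both were near background. Bco1 was above background on 2 of 3 TCDD and 0 of 3 control pituitaries, and Pparg on 0 of 3 TCDD and 1 of 3 control pituitaries.

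In the hypothalamus Meis1, a homeobox factor that retinoic acid induces, differed by 0.39 ± 0.14 (adjusted p = 0.349) and Nr4a1, an orphan receptor that pairs with RXRs, by 0.25 ± 0.11 (adjusted p = 0.425). The enzymes that clear retinoic acid and that respond to it in many tissues did not pass in either. Cyp26a1 differed by 0.29 ± 0.20 in the pituitary (adjusted p = 0.641) and -0.13 ± 0.20 in the hypothalamus (adjusted p = 0.847). Cyp26b1 differed by -0.67 ± 0.40 in the pituitary (adjusted p = 0.571) and 0.04 ± 0.40 in the hypothalamus (adjusted p = 0.983). The cytosolic carriers of retinoic acid did not pass in either tissue. Crabp1 differed by 0.31 ± 0.17 in the pituitary and 0.32 ± 0.17 in the hypothalamus (adjusted p = 0.524 and 0.535), and Crabp2 by -0.27 ± 0.18 and -0.29 ± 0.18 (adjusted p = 0.619 and 0.599). Stra6, the retinol uptake receptor, differed by -0.19 ± 0.12 and 0.04 ± 0.12 (adjusted p = 0.590 and 0.940), and Rdh10, which makes retinaldehyde, by -0.11 ± 0.14 and 0.16 ± 0.14 (adjusted p = 0.837 and 0.707), again for pituitary and hypothalamus in that order. Ttr, which carries RBP4 in plasma, differed by -2.45 and 2.44, with an SE of 1.78, and both values rest on the 2 high arrays named above. Rarg and Dhrs3 had no probe under these symbols.

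**Figure D5:**
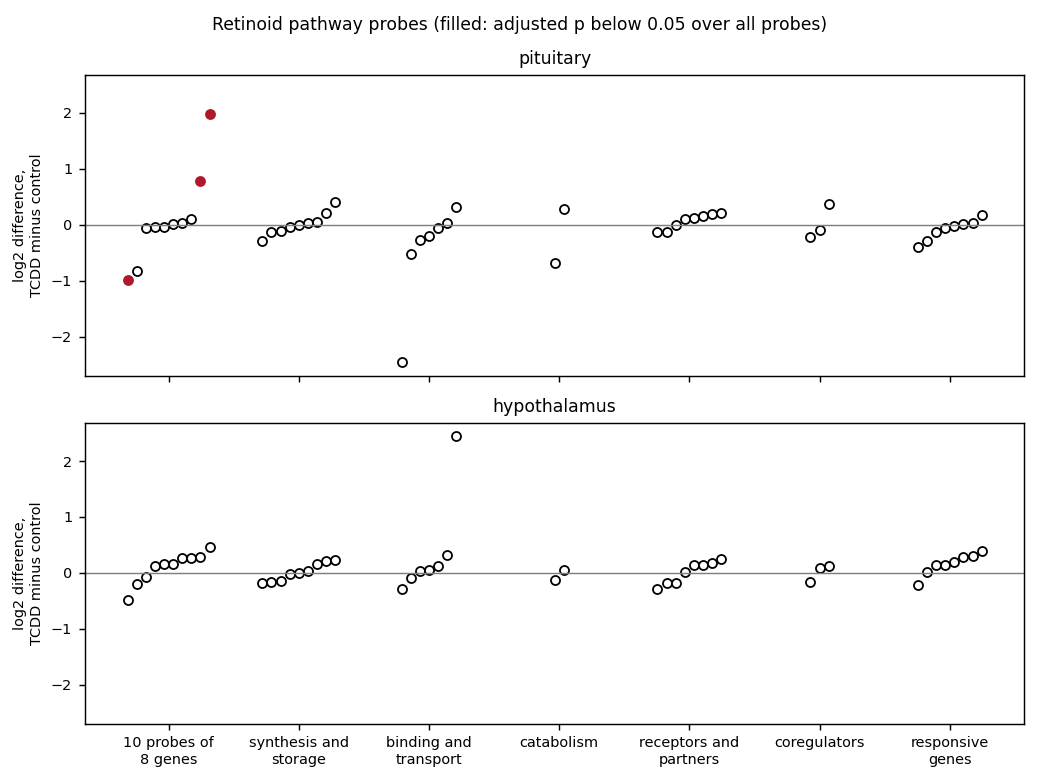
Difference in log2 level, TCDD minus control, for the 10 tested probes of 8 of the genes and for 37 further pathway genes by role, in the pituitary (top) and hypothalamus (bottom); filled points passed at an adjusted p below 0.05 over all probes. The only filled points are the 3 probes of Aldh1a1, Rxrg and Rbp7 in the pituitary, and the points near -2.5 and 2.4 are Ttr.

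Between the tissues of control fetuses, 27 of the 37 further genes passed, 19 higher and 8 lower in the pituitary, with a median of 0.72. That is 51.4% higher and 21.6% lower, against 33.7% higher and 35.9% lower among all tested probes. In TCDD arrays 28 passed, 20 higher (54.1%) and 8 lower (21.6%), against 33.4% higher and 36.8% lower among all. The higher counts include genes such as Aldh1a3 that passed the filter on dim probes through pituitary arrays alone, which favours this direction. Among the synthesis enzymes Dhrs4, a retinaldehyde reductase, was higher in control pituitaries by 2.86 ± 0.16 (adjusted p = 1.24e-08). Aldh1a3, the third retinaldehyde dehydrogenase, was above background on all 6 pituitary arrays and on 0 of 6 hypothalamus arrays. It was at least 3.55-fold higher in control pituitaries, given without a p-value because only pituitary arrays let it pass the filter. Rdh10, which also needed its pituitary arrays to pass the filter, was at least 1.60-fold higher in control pituitaries. Both bounds hold on the scale of the main processing only. Over the alternatives the measured log2 difference was as low as 0.55 for Aldh1a3 and 0.17 for Rdh10.

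Crabp2, which carries retinoic acid to its receptors, was higher in control pituitaries by 1.86 ± 0.18 (adjusted p = 1.36e-06), and Crabp1 by 0.86 ± 0.17 (adjusted p = 5.87e-04). Rlbp1, a retinaldehyde carrier of retina and glia, was lower in control pituitaries (-2.09 ± 0.20, adjusted p = 9.49e-07). Stra6, which passed the filter through pituitary arrays alone, was at least 1.27-fold higher in control pituitaries. Cyp26b1 was higher by 2.14 ± 0.40 (adjusted p = 3.90e-04). Cyp26a1, above background on 2 of 3 control pituitaries and on no hypothalamus array, was at least 1.26-fold higher. It too passed the filter through pituitary arrays alone, and its call was lost in the authors' processed values. The bounds of Stra6 and Cyp26a1 likewise hold for the main processing only. Over the alternatives their measured log2 differences were as low as 0.11 each. The responsive genes Rarres2, which encodes the adipokine chemerin, and Rarres1 were higher in control pituitaries by 3.99 ± 0.46 (adjusted p = 6.03e-06) and 2.98 ± 0.23 (adjusted p = 1.70e-07). Thrb, the thyroid hormone receptor that partners RXRs in the pituitary, was higher by 3.62 ± 0.13 (adjusted p = 5.10e-10).

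The genes whose pattern over the 12 arrays lay nearest to Aldh1a1 and to Rxrg were found by the root mean square difference of log2 values, each probe centred on its own mean, among 9358 other probes with a symbol. For Aldh1a1 they were Asic4 at 0.453, Ugt1a6 at 0.491, Myh7 at 0.495, Spag1 at 0.575 and Spock1 at 0.582, against a median of 0.873 over all these probes. For Rxrg they were Fxyd3 at 0.166, Chi3l1 at 0.174, Ms4a7 at 0.185, Msn at 0.212 and Srpk3 at 0.215, against a median of 0.649. All 10 of these probes had a higher mean in TCDD than in control pituitaries, a likeness that the measure itself selects.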

How the data were processed

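The authors deposited 1 bead intensity per probe and array, not normalized, with a detection p-value beside it, per the file headers. Labelled cRNA was hybridised to RatRef-12 BeadChips, per the labels' protocols. The scanner software and any chip or scan batch were not stated. A second deposited table, used as an alternative, holds values on what looks like a log2 scale, of unknown transform. Its column medians were 7.89 on each of the 6 pituitary and 7.91 on each of the 6 hypothalamus arrays, it ranked probes as the intensities did, and no centring of genes was seen.

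The 22523 probes went through neqc in limma 3.58.1 (R 4.3.3, offset 16), which corrects background from the detection p-values, quantile-normalizes the 12 arrays and shrinks differences of dim probes. A probe was kept if its detection p was below 0.05 on 3 or more arrays, which left 13018 and dropped 9505. One limma fit of 4 group means (8 residual and 4.19 prior degrees of freedom), tested on simulated data, gave two-sided p-values, adjusted by Benjamini-Hochberg over all kept probes for each contrast, with a threshold of 0.05. Median intensity per array was 92.5 to 120.8, 47.4% to 54.5% of probes were above background, and the number of arrays limits the precision.

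The 9 genes and the lists of pathway and marker genes were chosen with earlier results of these data known. Named are all 9 genes. Of the other pathway genes, those that passed with TCDD are named, or the 2 of smallest p where 0 did, then the 8 with the largest tissue difference that passed, and a further set (Rarg, Crabp1, Crabp2, Stra6, Ttr, Dhrs3, Rdh10, Cyp26a1, Cyp26b1 and 1 gene that is not reported here). The 5 probes nearest in pattern to Aldh1a1 and to Rxrg are named as well. Alternatives covered scaling, background, filters, the deposited processed values, separate tissue fits, array weights, a replicate block and leaving out each array. Leaving out both hypothalamus arrays numbered 3 was chosen after seeing the data.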

Additional observations from a re-analysis of the deposited data

Results flagged for a closer look

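For Aldh1a1 the TCDD effect differed between the tissues by 2.47 ± 0.36 (pituitary minus hypothalamus, log2). Every TCDD pituitary lay above the control pituitary mean and every TCDD hypothalamus below the control hypothalamus mean, and the difference passed over all probes. It did not pass with the replicate block (2.08), without hypothalamus TCDD replicate 4 (2.45) or without pituitary control replicate 2 (2.52). The control hypothalamus mean of Aldh1a1 rested in part on replicate 5, at 10.62, and the exposed and control hypothalami overlapped. Without that array the hypothalamus difference was -0.18. For Rbp7 the measured difference was -0.90 ± 0.15. Of its 4 groups only control pituitaries were above background, on 3 of 3 arrays, so this value rests on the background level of the others and is no estimate of size. It was past the threshold over all probes, but not with no background correction (-0.62), in the authors' processed values (-0.21), with array weights (-0.87), with the replicate block (-0.79) or when any of the 9 TCDD pituitary and hypothalamus arrays was left out (-0.95 to -0.85). Both genes were chosen on the pituitary arrays that enter these values, so both are descriptions. The Rbp7 probe also passed the filter through control pituitaries alone, so its direction was fixed in advance. For Rarb, probe ILMN_1359077 gave a difference of 0.30 ± 0.14. Its TCDD arrays lay above the control mean in the pituitary and below it in the hypothalamus, and the difference did not pass over all probes (limma, adjusted p = 0.438). No outlier test was run within groups of 3 arrays.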

How the results depend on the processing

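Over the alternatives the count of probes of the 9 genes that passed was 6 to 8 between tissues in TCDD arrays, 7 to 10 in control arrays, 2 to 3 for TCDD in the pituitary and 0 for TCDD in the hypothalamus. For the other pathway genes the pituitary TCDD count of 0 became 2 with no filter on dim probes and 1 with array weights, and was 0 to 1 with each array left out. Over all probes that comparison gave 87 calls, against 218 in the authors' processed values, 231 with array weights and 26 with separate tissue fits. Of 1532 values of single genes under an alternative, 1477 kept their direction and their side of the threshold or moved within the spread.

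Within each tissue, same-numbered TCDD and control arrays had deviations that correlated at -0.07 to 0.11 over 4 pairs. So few pairs cannot show whether arrays of the same number share a source. Pituitary and hypothalamus arrays of the same number were not compared in this way. The main fit treats them as independent, and whether they are was not tested. With the replicate block the pituitary TCDD count over all probes was 40. The difference of TCDD effects was then 2.08 for Aldh1a1 and -0.79 for Rbp7 and neither passed. With the block the TCDD difference of Aldh1a2 in the pituitary was -0.29, the control tissue difference of Rxra 0.45 (adjusted p = 0.0612) and the TCDD-array one of Rarb (ILMN_1359077) -0.21 (adjusted p = 0.204).

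Among tested values, those that changed sign had not passed. With TCDD in the pituitary the alternatives gave -0.15 to 0.08 for Rxra and -0.0980 to 0.0110 for Rara. Rxrb gave -0.0233 to 0.0731 (ILMN_1375706) and -0.0820 to 0.0634 (ILMN_1376944), and Rarb (ILMN_1359481) -0.104 to 0.00159. The measured tissue difference of Rbp7 in TCDD arrays, where it was at background, ran from -0.22 to 0.20. For TCDD in the hypothalamus, leaving out each array gave -0.10 to 1.02 for Aldh1a2, -0.0205 to 0.22 for Rxra, -0.16 to 0.58 for Rarb (ILMN_1359481), -0.00996 to 0.0788 for Stra6 and -0.24 to 0.52 for Cyp26b1. Leaving out both arrays numbered 3 gave -0.14 for Rxra. Median scaling gave -0.0174 for Rxrb (ILMN_1375706) and -0.0267 for Cyp26b1, which was at -0.0114 in the authors' processed values and -0.0862 with array weights. Between control tissues Rxrb (ILMN_1375706) was at -0.21 under median scaling, -0.00677 without both arrays numbered 3 and -0.0731 to 0.10 with each array left out. Median scaling moved the median difference of TCDD effects over all probes to 0.107. The cause of these shifts was not tested.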
